A study of Mus musculus with 22 samples.

Results

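The nuclear genes of the mitochondrial respiratory chain were followed in mouse lung epithelium. They were taken by gene symbol: the Nduf subunits of complex I with letters A, B, C, S or V, the 4 Sdh genes of complex II, the Uqcr genes of complex III, the Cox4 to Cox8 families of complex IV and the Atp5 genes of complex V, leaving out pseudogenes and related sequences. At each age 81 of these genes were in the data, of 13750 genes measured at E18.5 and of 15958 at 6 months. Of the 82 genes found at either age, 80 were found at both. Cox6c2 was in the E18.5 data alone and Cox6a2 in the 6-month data alone. The 81 genes comprise 37 of complex I, 4 of complex II, 8 of complex III, 15 of complex IV and 17 of complex V. The symbols leave out some subunits (Ndufab1, the cytochrome c1 gene Cyc1) and place Ndufa4, now counted with complex IV, in complex I.

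The study examined how the long noncoding RNA NANCI and its neighbouring gene Nkx2-1, which encodes a homeodomain transcription factor of lung epithelium, act as a pair. RNA was sequenced in 22 libraries. E18.5 cells, taken shortly before birth, were pulled down on magnetic beads by the epithelial surface protein EpCAM, and the 6-month cells were sorted as EpCAM+ and negative for the leukocyte protein CD45 and the endothelial protein CD31. WT mice were NANCI-+/+ (3 libraries at each age). NANCI mice carried NANCI-CreERT2:RFP on both copies (E18.5 only, 3 libraries). Nkx mice were Nkx2.1-GFP/+ (3 libraries at each age), and Double mice carried NANCI-CreERT2:RFP/+ together with Nkx2.1-GFP/+ (3 libraries at E18.5 and 4 at 6 months). The labels name no treatment, and no source used here gives strain, sex or pooling of animals. Whether each library came from its own animal is not stated, and p-values therefore reflect variation between libraries that may be partly technical.

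As background, complexes I and II pass electrons from NADH and succinate to ubiquinone, complex III passes them on to cytochrome c, and complex IV passes them to oxygen. Complexes I, III and IV pump protons across the inner membrane, and complex V, the ATP synthase, uses the gradient to make ATP. Most subunits are encoded in the nucleus, while a small set at the core of complexes I, III, IV and V is encoded in mitochondrial DNA. Several complex IV subunits exist as paralogs used in particular tissues or oxygen conditions. In the lung, alveolar type 2 cells, which make surfactant, are rich in mitochondria.

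Promoters of the nuclear subunits are known for binding sites of NRF1 and of ETS-family factors such as GABP. RefSeq promoter windows (build GRCm38.p6, 250 bases before to 50 bases after the start) were matched for 64 of the 82 genes, with 69 windows. The letters CGCANGCG (NRF1-type, either strand) were in 28 of these 69 windows (40.6%), against 8.21% of 32851 windows in the table. The letters CCGGAAG (ETS-type, either strand) were in 16 of 69 (23.2%), against 8.86%. A total of 37 windows (53.6%) held one or the other, against 15.6%. The motifs do not overlap in the windows printed. A match is a description of the letters and was not tested as a binding site. The windows below belong to 4 genes whose levels are described later, the first 3 higher and the last lower in 6-month Double than in WT libraries. They are printed 5′ to 3′ on the gene's strand, with motif matches in capitals.
Sdhd, minus strand of chr9:50603800-50604099: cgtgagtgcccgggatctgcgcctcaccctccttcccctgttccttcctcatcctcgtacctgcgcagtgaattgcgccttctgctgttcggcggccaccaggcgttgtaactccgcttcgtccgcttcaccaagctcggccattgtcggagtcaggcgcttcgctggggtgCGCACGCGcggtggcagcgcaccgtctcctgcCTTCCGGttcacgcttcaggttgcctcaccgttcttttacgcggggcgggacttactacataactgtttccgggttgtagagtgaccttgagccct
Atp5g3, minus strand of chr2:73911277-73911576: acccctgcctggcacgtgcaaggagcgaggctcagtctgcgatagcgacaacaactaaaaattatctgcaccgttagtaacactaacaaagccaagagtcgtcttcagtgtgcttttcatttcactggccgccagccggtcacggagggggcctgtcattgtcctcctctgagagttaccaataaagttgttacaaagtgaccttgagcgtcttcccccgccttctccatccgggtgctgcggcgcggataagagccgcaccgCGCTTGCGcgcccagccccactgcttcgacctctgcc
Ndufa1, minus strand of chrX:37191189-37191488: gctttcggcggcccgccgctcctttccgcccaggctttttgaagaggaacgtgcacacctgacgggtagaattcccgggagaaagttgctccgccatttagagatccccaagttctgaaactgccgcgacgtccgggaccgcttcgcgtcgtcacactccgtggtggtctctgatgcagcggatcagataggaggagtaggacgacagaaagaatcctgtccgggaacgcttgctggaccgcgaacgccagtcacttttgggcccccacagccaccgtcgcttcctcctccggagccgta
Cox6b2, minus strand of chr7:4753045-4753344: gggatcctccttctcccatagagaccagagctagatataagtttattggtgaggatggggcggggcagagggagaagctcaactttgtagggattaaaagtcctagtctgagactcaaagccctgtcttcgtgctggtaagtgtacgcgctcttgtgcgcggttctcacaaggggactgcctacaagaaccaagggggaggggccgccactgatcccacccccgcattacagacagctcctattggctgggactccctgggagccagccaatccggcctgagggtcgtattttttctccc
The Sdhd window held 1 match of each kind and the Atp5g3 window 1 NRF1-type match. The Ndufa1 and Cox6b2 windows held neither, nor did those of Uqcrfs1 and Cox5a, which also rose and are not printed. The genes that rose thus included windows with and without these letters.

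The values are log2 expression, quantile-normalized within each age, so a difference is a change of rank among genes and read totals are unknown. Correlations across genes between libraries were 0.91 to 0.985 among E18.5 libraries and 0.859 to 0.977 among 6-month libraries. Nkx2-1 itself was at 14.75 in WT libraries, 14.83 in NANCI libraries, 14.82 in Nkx libraries and 14.81 in Double libraries at E18.5 (adjusted p = 0.978, 0.82 and 0.842 against WT, limma), and at 14.37 in WT libraries, 13.86 in Nkx libraries and 14.03 in Double at 6 months (adjusted p = 0.128 and 0.114). None of these differences passed, and since no source used here says how the GFP allele alters the transcript, these levels do not check the genotypes. In each library the slope of its deviations from the gene means on log2 transcript length was recorded, since the respiratory chain genes are short: their median longest transcript was 1001 bases, against 3279 bases over all E18.5 genes and 3241 at 6 months. Xist and Y-linked genes showed all 4 Double libraries at 6 months to be female in pattern, while WT held 2 male and 1 female and Nkx 1 male and 2 female. All 3 NANCI libraries were male in pattern.

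At E18.5 none of the 81 respiratory chain genes passed an adjusted p of 0.05 in any of 4 comparisons (limma, adjusted by Benjamini-Hochberg over all genes). Of all genes, 0% passed in NANCI against WT, 7.32% in Nkx against WT, 14.6% in Double against WT and 0.00727% (1 gene) in Double against Nkx. At an unadjusted p under 0.05, 1 of the 81 was lower in NANCI, 1 was lower in Nkx, 1 was higher and 1 lower in Double, and none passed that level between Double and Nkx. Of all genes, 1.4% were higher and 1.7% lower at that level in NANCI, 11.5% and 10% in Nkx, 13.6% and 13.7% in Double, and 2.2% and 1.86% in Double against Nkx. These were Ndufa6, an accessory subunit of complex I (−0.45 ± 0.19 in NANCI, log2 fold change ± SE, adjusted p = 0.978), Cox6b2, a testis-type complex IV subunit (−1.02 ± 0.39 in Nkx, adjusted p = 0.149), Ndufs1, which carries iron-sulfur clusters of complex I (0.28 in Double, adjusted p = 0.104), and Ndufb4, a membrane-arm subunit of complex I (−0.46 in Double, adjusted p = 0.132). The standard error of a fold change had a median of 0.25 over the 81 genes, and the 95% interval reached a median of 0.55 to either side.

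The median log2 fold change of the 81 genes was −0.27 in NANCI, −0.16 in Nkx and −0.07 in Double against WT, beside 0.01, 0.02 and 0.02 over all genes. Values above 0 were held by 5, 10 and 31 of the 81 genes, against 52.1%, 51.9% and 52% of all genes. These 3 comparisons share the WT libraries. Leaving out 1 library at a time moved the medians over −0.55 to −0.13 in NANCI, −0.44 to −0.05 in Nkx and −0.34 to 0.1 in Double, where the sign turned. With the length trend removed they were −0.12, −0.07 and 0.01. The mean over the 81 genes was 11.13, 11.13 and 10.31 in WT libraries 1 to 3. It was 10.58, 10.41 and 10.78 in the NANCI libraries, 10.52, 10.93 and 10.52 in the Nkx libraries, and 10.5, 11.07 and 10.76 in the Double libraries. WT library 3 was thus below every other E18.5 library and WT libraries 1 and 2 above every other, and the groups overlapped. The shift was not particular to the respiratory chain. The 78 cytosolic ribosomal protein genes had medians of −0.33 in NANCI, −0.27 in Nkx and −0.07 in Double against WT, with 0 passing. Their mean was 14.14, 14.11 and 13 in WT libraries 1 to 3.

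Single genes differed. The core subunits Ndufs1, Sdha, Atp5a1 and Atp5b had higher means in Nkx than in WT. Ndufv1, Sdhb, Uqcrc1, Uqcrfs1 and Cox5a had lower ones, as did Cox4i1. Cox4i1, the ubiquitous isoform of complex IV subunit 4, is given as 1 example with a wide spread among WT libraries (SD 0.91). It was at 13.04, 13.21 and 11.55 in the WT libraries, 12.35, 11.97 and 12.37 in NANCI libraries, 12.06, 12.71 and 11.78 in Nkx libraries, and 11.87, 12.73 and 12.26 in Double. The third WT library was the lowest of all 12. With that library left out, 12 of the 81 genes were lower in Nkx than in WT and 6 in Double, among them Cox4i1, with a log2 fold change of −0.94 in Nkx. Of all genes, 15.8% passed in Nkx and 19.6% in Double in that fit, either way. NANCI still had no passing gene. Under limma's array weights, which gave WT library 3 a weight of 0.245 and WT library 1 a weight of 3.52, 27 genes passed in NANCI, all lower, 26 in Nkx, 25 of them lower, and 25 in Double, 24 of them lower. In the same fit 7.69%, 25.1% and 38.1% of all genes passed, either way. The length slope moved with these means: it was −0.116 and −0.139 in WT libraries 1 and 2 and 0.0881 in WT library 3 (log2 per doubling of length), and its part in the result was not tested. With the length trend removed from each library, 0 genes passed in NANCI and Nkx and 1 in Double, the complex III subunit Uqcrb. Of all genes, 0%, 8.83% and 16.7% passed in those fits.

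**Figure D1:**
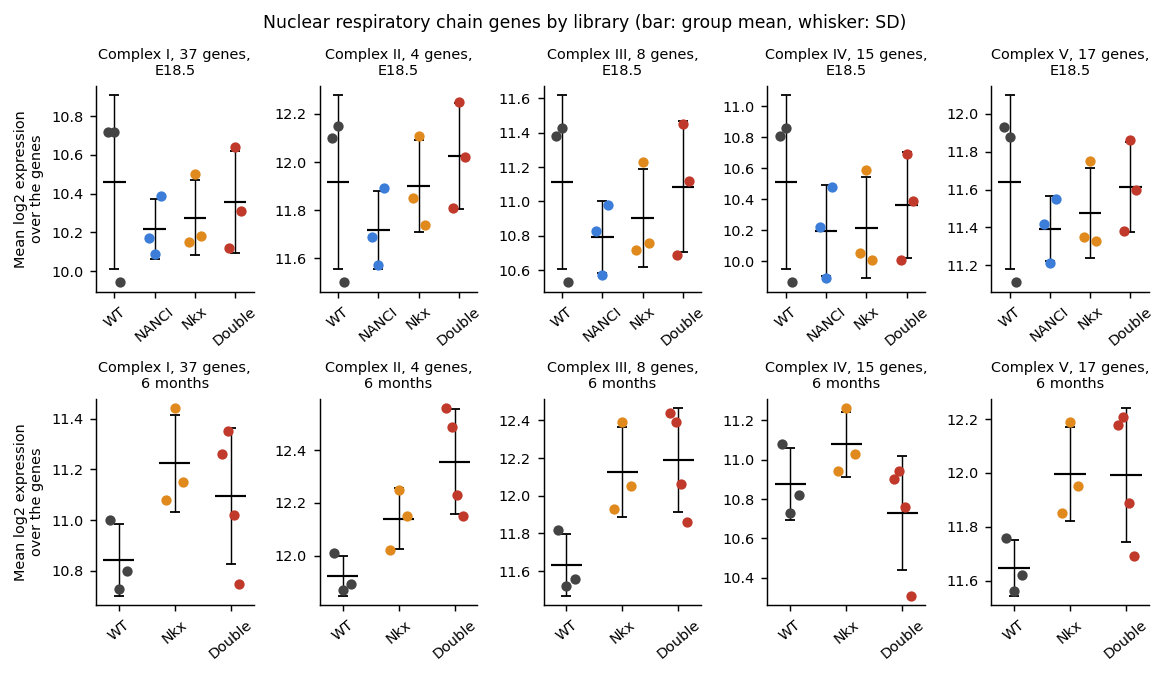
Mean log2 expression over the genes of each complex (columns, I to V) in every library at E18.5 (top) and 6 months (bottom), with the group mean and SD. Axes do not start at 0. At E18.5 the third WT library lies at the bottom of each panel, and at 6 months the Nkx and Double means lie above WT in each complex except the Double mean in complex IV.

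The subunits encoded in mitochondrial DNA, of which 10 were measured, were described beside the nuclear genes at E18.5. In Nkx 2 of 10 were higher than in WT and in Double 4 of 10, with none lower, beside 7.32% and 14.6% of all genes called either way. Their median log2 fold change was 0.62 in Nkx and 0.69 in Double, with a range of 0.05 to 0.82 in Nkx and −0.21 to 0.91 in Double, where mt-Atp6, mt-Co3 and mt-Nd6 were below 0. The mean of the 10 overlapped between groups, at 13.36 to 14.08 over the WT libraries, 13.87 to 14.69 over Nkx and 14 to 14.34 over Double. mt-Cytb encodes cytochrome b, the redox core of complex III. It was at 17.67, 17.5 and 17.92 in WT, at 17.67 in all 3 NANCI libraries, at 18.45, 18.26 and 18.78 in Nkx, and at 18.78, 18.26 and 18.78 in Double. Equal values arise because quantile normalization gives the same value to the same rank. All Nkx and Double libraries were above all WT and NANCI libraries, with a log2 fold change against WT of 0.8 ± 0.22 in Nkx (limma, adjusted p = 0.0446) and 0.91 ± 0.22 in Double (limma, adjusted p = 0.015).

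mt-Nd4, a proton-pumping subunit of complex I, was at 16.14, 15.93 and 16.33 in WT and at 16.02, 16.16 and 16.39 in NANCI. In Nkx it was at 16.67, 16.61 and 17.08, and in Double at 16.84, 17.08 and 16.94. The Nkx and Double libraries were again above the other 6, by 0.66 in Nkx (limma, adjusted p = 0.0426) and 0.82 in Double (limma, adjusted p = 0.00869) against WT. mt-Nd1 and mt-Nd5, also of complex I, rose by 0.87 each in Double. The other 6 (mt-Atp6, mt-Co1, mt-Co2, mt-Co3, mt-Nd2 and mt-Nd6) did not pass in either group, and all but mt-Nd2 in Double overlapped WT. At 6 months 0 of the 10 passed in Double against WT, with a median of −0.32 and 0 genes at an unadjusted p under 0.05, and 0 of 10 passed in Nkx. Leukocyte markers differed between the same E18.5 groups: their mean over 9 genes was 6.844 to 7.172 in WT libraries, 6.139 to 6.446 in NANCI libraries, 3.745 to 4.905 in Nkx and 3.755 to 4.587 in Double. Proliferation genes rose in the same groups, 7 of 10 in Nkx and 9 of 10 in Double. AT2 markers fell in 2 of 10 genes in Nkx and 9 of 10 in Double, and ciliated markers in 0 of 8 and 4 of 8. The part of these cell type and proliferation genes in the mitochondrial values was not tested.

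**Figure D2:**
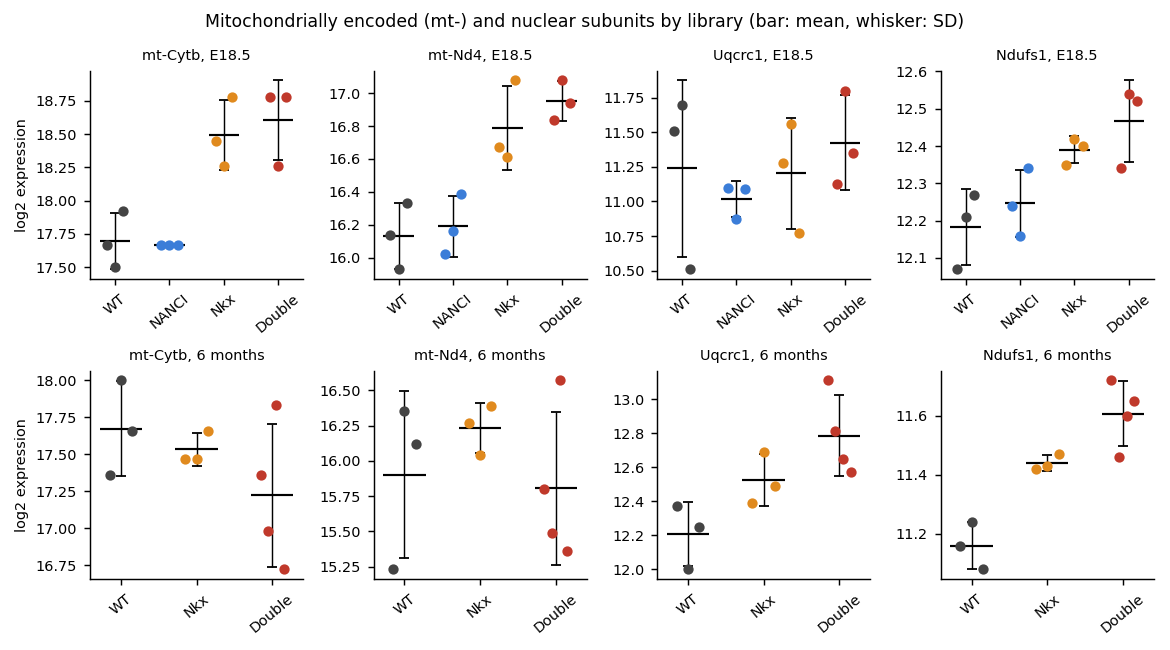
Log2 expression in each library of 2 mitochondrially encoded subunits (mt-Cytb, mt-Nd4) and 2 nuclear ones (Uqcrc1, Ndufs1) at E18.5 (top) and 6 months (bottom), with group mean and SD. At E18.5 the Nkx and Double libraries lie above WT for both mt- genes, while at 6 months the Double libraries lie above WT for both nuclear genes.

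Assembly factors and regulators were examined at E18.5 as companion lists, whose counts were small and are to be read beside the 7.32% (Nkx) and 14.6% (Double) of all genes called. Lyrm7, a complex III assembly chaperone, rose in Nkx from 7.21 to 8.3 (1.09 ± 0.29, limma, adjusted p = 0.0406), the 1 of 6 complex III assembly factors to pass. Ndufaf5, a complex I assembly factor, rose in Double by 0.6 ± 0.17, 1 of 16 on its list. Of 15 biogenesis regulators, Pprc1, a coactivator related to PGC-1, rose by 0.98 in both Nkx and Double. Twnk, the mitochondrial DNA helicase, fell from 10.7 to 10.12 in Nkx and to 9.98 in Double. In glycolysis, 2 of 18 genes (11.1%) fell in each of Nkx and Double and none rose. These were Aldoc and Pfkp in Nkx, and Aldoc and Pfkfb3 in Double.

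At 6 months no respiratory chain gene passed in Nkx against WT, where 2.63% of all genes passed. The smallest adjusted p was 0.0766, for Uqcrc2, a core protein of complex III, which was at 12.13 in WT and 12.59 in Nkx. At an unadjusted p under 0.05, 38 of 81 genes were higher and 0 lower, against 12% of all genes higher and 9.93% lower. The Nkx libraries were all above the WT libraries for 42 of the 81 genes, against 16.1% of all genes, and all below for 2, against 14.4%. The median log2 fold change was 0.4, beside 0.01 over all genes, and 73 of 81 values were above 0, against 50.6% of all genes. By complex the medians were 0.41 for complex I, 0.27 for complex II, 0.52 for complex III, 0.27 for complex IV and 0.36 for complex V.

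The mean of the 81 genes was 11.31, 11.04 and 11.1 in the WT libraries and 11.35, 11.7 and 11.44 in the Nkx libraries. Their length slopes were 0.0502, 0.111 and 0.0808 in WT and −0.0598, −0.138 and −0.0333 in Nkx, so the groups did not overlap in slope either. The Double libraries had slopes of −0.0863, 0.0767, −0.0711 and 0.0701 with means of 11.57, 11.61, 11.32 and 11.05. Double libraries 2 and 4 had slopes within the WT range, library 2 with a mean above all WT libraries and library 4 with one within their range. The part of the slope in these means was not tested. Cytosolic ribosomal protein genes, another set of short transcripts, had a median log2 fold change of 0.4 in the same comparison, with 0 of 78 passing. With the length trend removed, the median of the respiratory chain genes was 0.16, and again 0 passed, beside 1.92% of all genes. Endothelial markers had a median of −0.74 in Nkx, and their part was not tested.

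**Figure D3:**
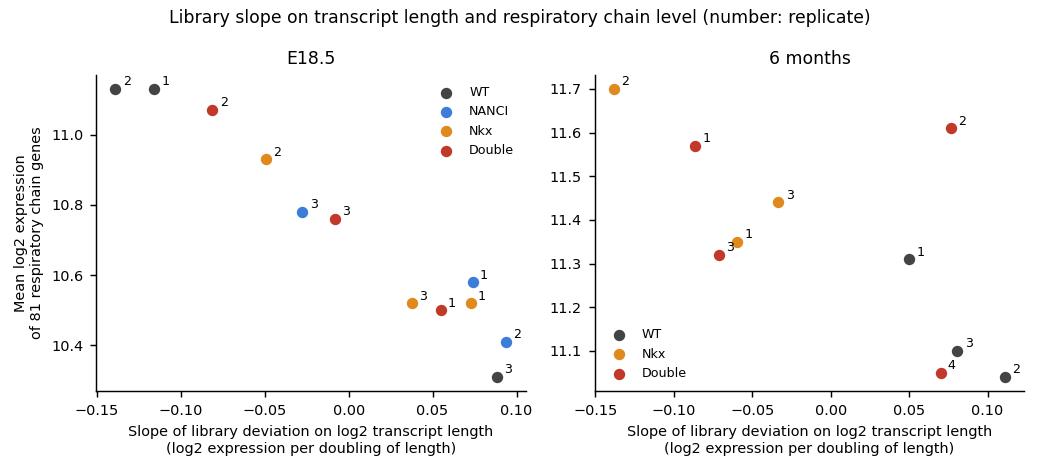
Mean log2 expression of the 81 respiratory chain genes (vertical) against each library's slope of deviation on log2 transcript length (horizontal) at E18.5 (left) and 6 months (right), one point per library with its replicate number. At E18.5 libraries with lower slopes have higher means, and at 6 months the WT slopes of 0.0502 to 0.111 lie apart from the Nkx slopes of −0.138 to −0.0333. Double library 2 has a slope of 0.0767 and a mean of 11.61, and Double library 4 a slope of 0.0701 and a mean of 11.05.

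In Double mice at 6 months, 25 of the 81 genes rose and 4 fell against WT (limma, adjusted p under 0.05). Of all genes, 36.3% passed, 18.4% higher and 17.9% lower, so the share of respiratory chain genes that rose was above that of all genes and the share that fell below it; neither was tested. By complex, 11 of 37 (29.7%) rose in complex I, 2 of 4 (50%) in complex II and 5 of 8 (62.5%) in complex III. In complex IV 4 of 15 rose (26.7%) and 3 fell (20%). In complex V 3 of 17 rose (17.6%), a share near the 18.4% of all genes. The 4 that fell were 3 complex IV genes, Cox6a2, Cox4i2 and Cox6b2, and Ndufa4l2. All of these are paralogs of broadly expressed subunits. The median log2 fold change was 0.41, beside 0.06 over all genes, and 73 of 81 values were above 0, against 54.9% of all genes. The other 52 genes did not pass.

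Among complex I genes, Ndufa1, a small membrane subunit encoded on the X chromosome that the complex needs for assembly, rose most. It was at 10.45, 10.32 and 10.3 in WT libraries, 10.71, 11.34 and 10.9 in Nkx libraries, and 11.71, 11.7, 11.36 and 10.94 in Double. All Double libraries were above all WT libraries, and the fourth was within the Nkx range. The log2 fold change was 1.07 ± 0.2 (limma, adjusted p = 0.00147), a 2.1-fold difference. Ndufs1 was at 11.16, 11.24 and 11.08 in WT libraries, 11.42, 11.43 and 11.47 in Nkx libraries, and 11.72, 11.46, 11.6 and 11.65 in Double. The groups did not overlap between WT and Double, and it rose by 0.45 ± 0.1 (limma, adjusted p = 0.00362). Ndufa12, Ndufv2, Ndufs4, Ndufa5 and Ndufa3 rose by 0.75, 0.71, 0.66, 0.63 and 0.62. Ndufv2 carries an iron-sulfur cluster of the NADH-oxidizing module. Ndufv1, which binds NADH, was 0.29 higher and did not pass (adjusted p = 0.101).

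In complex II, Sdhd, a membrane anchor of succinate dehydrogenase, was at 11.52, 11.48 and 11.35 in WT libraries, 11.56, 11.9 and 11.94 in Nkx libraries, and 12.58, 12.28, 11.95 and 11.93 in Double. The Double libraries were above WT and overlapped Nkx, with a rise of 0.74 ± 0.16 over WT (limma, adjusted p = 0.00424). Sdhb, the iron-sulfur subunit, rose by 0.57 ± 0.19 (limma, adjusted p = 0.0341), a call that held in 8 of 16 alternative settings (adjusted p 0.0131 to 0.188), while the catalytic flavoprotein Sdha was at 13.07 in WT and 13.26 in Double and did not pass (adjusted p = 0.159).

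Complex III had the largest share of genes that rose. Uqcrfs1, the Rieske iron-sulfur protein, was at 11.55, 11.25 and 11.21 in WT libraries, 11.62, 11.92 and 11.74 in Nkx libraries, and 12.12, 11.87, 11.81 and 11.82 in Double. Both mutant groups were above WT in all libraries, and the Double difference was 0.57 ± 0.12 (limma, adjusted p = 0.00407). Uqcrq, Uqcrb, Uqcrc1 and Uqcrc2 rose by 0.77, 0.65, 0.58 and 0.51. Uqcrq overlapped between WT and Double, and the other 3 did not.

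Of the complex IV genes that rose, Cox5a, a structural subunit near the core, was at 11.11, 10.86 and 11 in WT libraries, 11.13, 11.32 and 11.19 in Nkx libraries, and 11.81, 11.61, 11.42 and 11.36 in Double. No Double library overlapped a WT or Nkx library, and the rise over WT was 0.56 ± 0.12 (limma, adjusted p = 0.00473). Cox7c, Cox7b and Cox5b rose by 0.81, 0.69 and 0.6. Cox4i1 was 0.13 ± 0.19 higher and did not pass.

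For complex V, Atp5g3, 1 of 3 genes of the c-ring subunit of ATP synthase, was at 12.28, 12.2 and 12.33 in WT libraries, 12.4, 12.87 and 12.61 in Nkx libraries, and 13.12, 12.88, 12.9 and 12.59 in Double. All Nkx and Double libraries were above WT, and the Double difference was 0.6 ± 0.14 (limma, adjusted p = 0.00628). Atp5c1, the rotating gamma subunit of the stalk, rose by 0.62, and Atp5mpl, a small membrane subunit, by 0.58. The catalytic-head subunits Atp5a1 and Atp5b were 0.13 ± 0.12 and 0.09 ± 0.12 higher and did not pass.

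**Figure D4:**
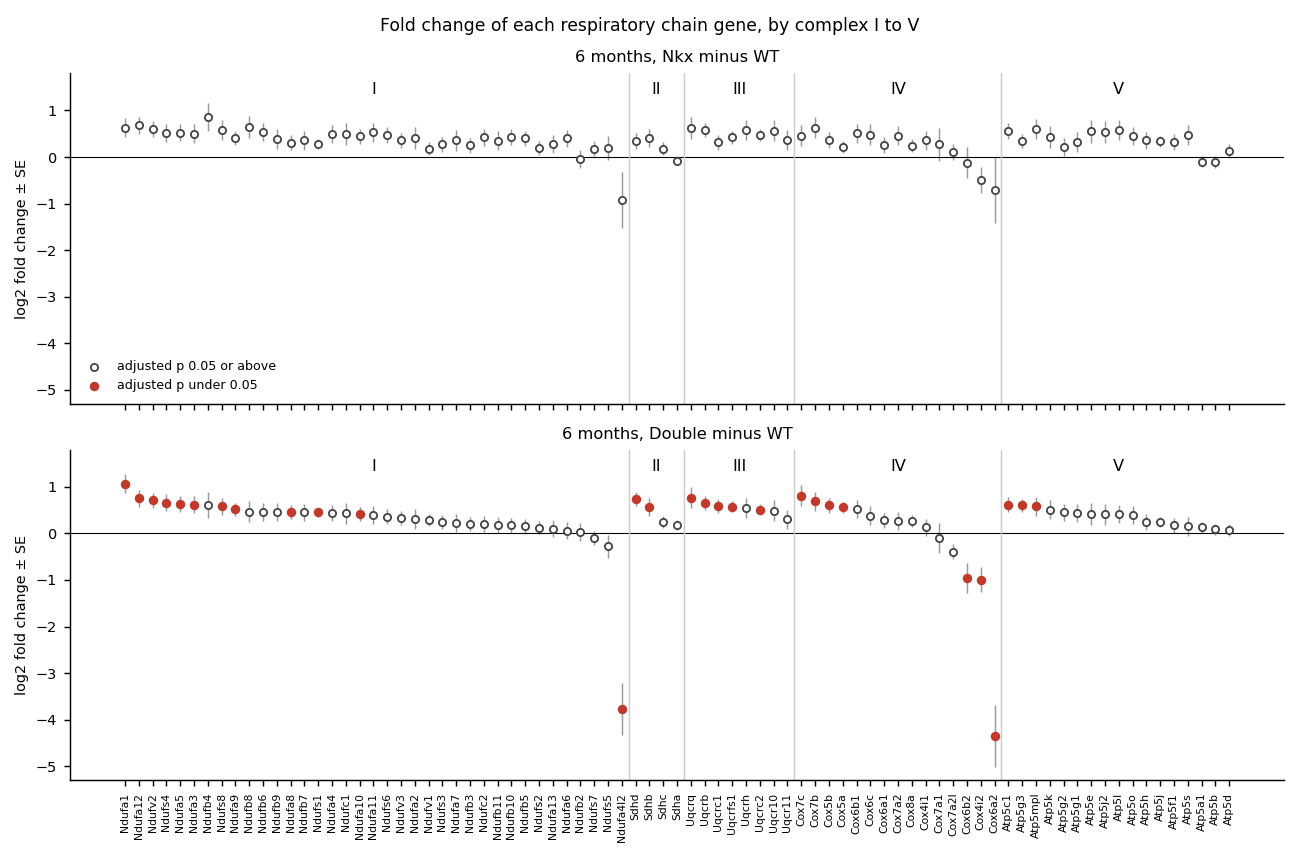
Log2 fold change with SE of each of the 81 respiratory chain genes at 6 months, ordered by complex and by the Double difference, in Nkx minus WT (top) and Double minus WT (bottom). Filled points passed an adjusted p of 0.05, of which there are 0 in Nkx and 29 in Double, 4 of them below 0.

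Of the 4 genes that fell in Double, Cox6a2 and Ndufa4l2 had the largest fold changes of the 81. Cox6a2 (ENSMUSG00000030785, GRCm38 chromosome 7, 128205435 to 128206387) encodes the heart and skeletal muscle form of complex IV subunit 6A. It was at 10.54, 9.92 and 9.59 in WT libraries, 8.78, 9.73 and 9.4 in Nkx libraries, and 5.22, 6.82, 6.96 and 3.65 in Double. Every Double library was below every other library, with a log2 fold change of −4.35 ± 0.66 against WT (limma, adjusted p = 0.000461) and −3.64 ± 0.66 against Nkx (limma, adjusted p = 0.0029). The Nkx and WT libraries overlapped. Of 4 heart and muscle markers measured, 1 fell in Double, Tnni3, from 7.78 to 6.81. The muscle myosin gene Myh6 was at 8.6 to 9.6 in WT and 8.23 to 10.22 in Double.

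Ndufa4l2 (ENSMUSG00000040280, GRCm38 chromosome 10, 127514967 to 127517154) is a hypoxia-inducible paralog of Ndufa4 that is abundant in pericytes. It was at 7.03, 6.27 and 7.43 in WT libraries, 6.51, 5.67 and 5.8 in Nkx libraries, and 2.22, 4.14, 2.85 and 3.35 in Double. In 2 of the 4 Double libraries it sat at the lowest value of the library, which was read as no reads, so the size of the fall depends on that floor. The log2 fold change was −3.77 ± 0.56 against WT (limma, adjusted p = 0.000379) and −2.85 ± 0.56 against Nkx (limma, adjusted p = 0.00424). At E18.5 it was at 7.5 in Double and 6.99 in WT and did not pass (0.52 ± 0.39, adjusted p = 0.45).

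Cox4i2, the lung-enriched and hypoxia-responsive isoform of complex IV subunit 4, was at 8.27, 7.52 and 8.26 in WT libraries, 7.78, 7.53 and 7.25 in Nkx libraries, and 7.29, 7.09, 6.73 and 7.02 in Double. The Double libraries were below WT and overlapped Nkx, with a log2 fold change against WT of −0.99 ± 0.26 (limma, adjusted p = 0.0131). Cox6b2 was at 8.32, 8.48 and 8.31 in WT libraries, 8.19, 8.31 and 8.26 in Nkx libraries, and 7.46, 6.47, 8.07 and 7.7 in Double. All Double libraries were below all others, with a log2 fold change against WT of −0.95 ± 0.32 (limma, adjusted p = 0.0342). That call held in 8 of 16 alternative settings (adjusted p 0.0114 to 0.308), and the Cox4i2 call in 12 of 16 (0.00654 to 0.0843). Neither passed against Nkx. Cox7a1, the other muscle-type paralog measured, was at 6.33 in WT and 6.23 in Double (adjusted p = 0.836).

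Markers of other cell types moved with these genes. Endothelial markers fell in all 12 of 12 genes in Double, with a mean level per library of 11.44 to 12.64 in WT libraries, 10.83 to 11.8 in Nkx and 8.468 to 9.567 in Double. The gene for CD31, Pecam1, was at 12.2, 12.77 and 13.52 in WT and 9.4, 10.85, 9.27 and 10.13 in Double, although the sort was against that protein. Mesenchymal and pericyte markers fell in 10 of 13 genes, from 8.833 to 9.635 in WT to 6.385 to 7.531 in Double, among them Des, Tcf21 and Pdgfra. The pericyte gene Pdgfrb was at 8.99, 8.62 and 10.11 in WT and 6.72, 8.24, 5.9 and 6.47 in Double. No listed marker of either kind rose. Their part in the fall of Ndufa4l2, Cox4i2, Cox6a2 and Cox6b2 was not tested, and in bulk libraries fewer cells of a type and less RNA per cell cannot be told apart. Epithelial markers rose in 3 of 5 genes (Epcam by 0.75, Krt8 by 1.37 and Krt18 by 1.38), while 8 of 10 AT2 markers, 4 of 8 AT1 markers and 8 of 8 ciliated markers fell. Of 6 secretory markers 2 rose and 0 fell, with a group mean of 14.86 in WT and 16.5 in Double. Of 10 proliferation genes 8 rose and 1 fell. Their part in the rise of the 25 genes was not tested either.

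**Figure D5:**
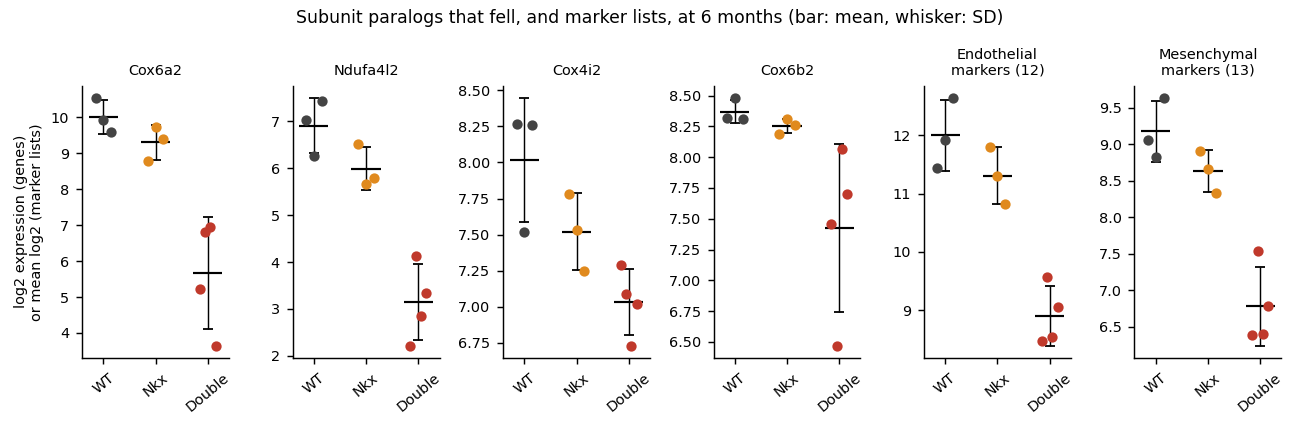
Log2 expression of the 4 subunit paralogs that fell in Double at 6 months, and the mean log2 expression of the endothelial (12) and mesenchymal and pericyte (13) marker lists, in each library with group mean and SD. The Double libraries lie below WT in all 6 panels, with Cox6a2 at 3.65 to 6.96 in Double against 9.59 to 10.54 in WT.

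Gene overlap was also recorded, since no source used here says whether reads kept their strand. Of the 29 genes that passed, 12 overlap another annotated gene, beside 37 of the 82 genes found at either age. Cox6a2 lies opposite Itgad, which was at 6.11 in WT and 5.52 in Double and did not pass. Ndufa4l2 lies opposite Shmt2, which moved the other way, from 9.29 to 10.09 (0.8 ± 0.14, limma, adjusted p = 0.00105).

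Against Nkx libraries of the same age, 0 respiratory chain genes were higher in Double and 2 lower, Cox6a2 and Ndufa4l2. Of all genes, 21.7% passed, 10.2% higher and 11.5% lower. The median log2 fold change of the 81 genes was −0.03. The comparisons of Nkx and Double against WT share the WT libraries, and side by side Ndufa1 was 10.36 in WT libraries, 10.98 in Nkx and 11.43 in Double, and Uqcrc2 12.13, 12.59 and 12.64.

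Other parts of the mitochondrial machinery were examined in Double at 6 months, to be read beside the 18.4% of all genes that were higher and 17.9% lower. Several lists lay near those shares. Of 16 complex I assembly factors 4 (25%) rose, with none falling. They were Ndufaf2, Tmem70, which also acts in complex V assembly, Ndufaf7 and Acad9. For complex III assembly 2 of 6 rose, Uqcc2 and Bcs1l, by 0.76 and 0.68. Of 20 complex IV assembly factors 6 (30%) rose and 2 (10%) fell. Coa4, a copper-pathway factor of the intermembrane space, was at 7.79, 8.31 and 8.47 in WT and 9.72, 10.03, 9.14 and 9.1 in Double, a rise of 1.31 ± 0.27 (limma, adjusted p = 0.00287). No Double library overlapped WT. Of 11 carriers and subunits outside the symbol families, 5 rose. Among them was Coq7, a ubiquinone synthesis enzyme, at 9.11, 9.47 and 9.44 in WT and 10.26, 10.26, 10.17 and 10.29 in Double, a rise of 0.9 ± 0.12 (limma, adjusted p = 0.000219). Atpif1, the inhibitor of ATP synthase hydrolysis, rose by 0.9 as well.

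Mitochondrial ribosomal protein genes rose in 34 of 77 (44.2%) and fell in 1, with a median of 0.45. Cytosolic ribosomal proteins rose in 5 of 78, with a median of 0.12. In the tricarboxylic acid cycle 5 of 18 genes (27.8%) rose and 1 fell. Pcx, which makes oxaloacetate from pyruvate, rose by 0.78, and the isocitrate dehydrogenase subunit genes Idh3g and Idh3b rose by 0.48 and 0.4 while Idh3a fell (−0.39). In glycolysis 6 of 18 (33.3%) rose and 2 (11.1%) fell. Eno1 and Pgk1 rose by 1.01 and 0.77, and Hk2, an early enzyme of the pathway, fell from 11.57 to 10.09. Of 15 biogenesis regulators, Tfb2m, a mitochondrial transcription factor, rose by 0.58, and Polg, the mitochondrial DNA polymerase, fell from 12.2 to 11.32. Polg was also the regulator that passed in Nkx at 6 months, at 11.7. Of 9 redox defence genes 3 rose, Glrx2, Prdx3 and Txn2.

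The Double count depended on which libraries entered. Leaving out Double library 4, the member of its group with the lowest respiratory chain mean (11.05, against 11.32 to 11.61 in the others), raised it from 29 to 49 genes. Of all genes, 35.9% passed in that fit and 36.3% in the main fit. Leaving out WT library 2 or 3 lowered it to 17 or 18, with 27.9% or 28.4% of all genes passing. With the sex pattern as a covariate 13 passed, and 24.1% of all genes passed. Female libraries alone hold 4 Double against 1 WT, so no count is given for them. In that fit the lone WT library is assumed to vary like the other groups, and fewer libraries enter. With the length trend removed 24 passed (19 higher and 5 lower), of which 23 were among the 29, while 37.5% of all genes passed. In all 14 planned settings 12 of the 29 passed: Atp5c1, Atp5g3, Cox5a, Cox6a2, Ndufa1, Ndufa4l2, Ndufs1, Ndufv2, Sdhd, Uqcrb, Uqcrc2 and Uqcrfs1. These 14 leave out the length-trend and female-only fits, which are among the 16 settings given for Sdhb, Cox4i2 and Cox6b2.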

How the data were processed

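RNA-seq of 22 libraries was analysed, with 1 file per library that holds 1 log2 value per Ensembl gene. The authors deposited log2 expression values, taken to be quantile-normalized within each age from the near-identical distribution of values across libraries. The submitters' processing notes name STAR, limma and mm9 without roles or versions. GENCODE on GRCm38 gave symbols for 13638 E18.5 genes (99.2%) and 15353 6-month genes (96.2%). Read totals are unknown, so no counting intervals are given. The number of distinct values up to the library median, used in place of depth, ranged over 209 to 284 (E18.5) and 128 to 382 (6 months).

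Groups come from the labels. Each age was fitted with limma 3.58.1 in R 4.3.3 (empirical Bayes with a mean-variance trend, group as the sole factor, all genes), with Benjamini-Hochberg adjustment across every gene of the age and a threshold of 0.05. Fold changes are given with the SE from limma. No fold change was computed between the ages, whose cells were enriched differently, and effects at both ages are set side by side without a test. Same-numbered libraries deviated together in E18.5 Nkx and Double (correlations 0.298, 0.504 and 0.18), a pairing read from the data, and in no other comparison. The fit was also run on simulated data with independent noise for each gene, which cannot speak to shifts shared by genes of a library or to the length trend. The members, companion lists and rules were chosen with earlier results of these data known. Named genes are the passing members, up to 10 per direction, or the 5 smallest p-values where fewer than 5 passed, with core subunits, paralogs and up to 4 passing genes of each companion list. Alternatives were another variance model, a filter on means below 5, the compared groups alone, depth and sex covariates, array weights, the replicate block and leaving out each library. Removal of the length trend, the cytosolic ribosomal protein list and single-sex fits were chosen after seeing the data.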

Additional observations from a re-analysis of the deposited data

Results flagged for a closer look

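Of 37 groups of values in 6-month Double examined for a library far from the others, Atp5b stood out. Its library 1 was at 15.12, the next at 14.9 and the lowest at 14.88. The groups were the named subunit genes, the mean of each complex and the mean of all respiratory chain genes. Chance flags about 1 in 20 groups. Ndufb4 moved in opposite directions at the 2 ages in Double against WT, with a log2 fold change of −0.46 at E18.5 and 0.61 at 6 months, and the groups did not overlap at either age. Neither value passed, and the difference between the ages was not tested.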

How the results depend on the processing

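Array weights gave 27 passing respiratory chain genes in NANCI, 26 in Nkx and 25 in Double at E18.5 (0 each in the main fit) and 5 in Nkx at 6 months. Of all genes, 7.69%, 25.1%, 38.1% and 6.87% passed in those comparisons, either way. At E18.5 the weights were 0.245 for WT library 3 and 3.52 for WT library 1. Leaving out each library gave 0 to 12 genes in E18.5 Nkx, 0 to 6 in E18.5 Double, 17 to 49 in 6-month Double against WT and 2 to 4 against Nkx. Of all genes, 3.39% to 15.8%, 8.6% to 19.6%, 27.9% to 35.9% and 13.8% to 21.9% passed in those fits. Male libraries alone gave 21 in E18.5 Nkx and 4 in E18.5 Double, but each compares 1 library with 1, with the spread taken from the 3 NANCI libraries, so these counts say nothing of stability. The 2 groups alone gave 1 in 6-month Nkx, Atp5c1, where 2.98% of all genes passed. The sex covariate gave 13 in 6-month Double against WT, where 24.1% of all genes passed. Female libraries alone hold 1 WT library there, so no count is given. The length trend removed gave 1 in E18.5 Double (16.7% of all genes) and 6 in 6-month Double against Nkx (22.4%). The depth covariate gave 5 in 6-month Double against Nkx (22.6% of all genes). In E18.5 Nkx and Double, same-numbered libraries correlated at 0.298, 0.504 and 0.18, a pairing read from the data that no label states. Differently numbered E18.5 pairs of any groups reached 0.427. In E18.5 Double against Nkx the replicate block gave 0 genes as without it, and 0.0655% of all genes passed. In each other comparison at least 1 same-numbered pair was under 0.1 (E18.5 pairs −0.285 to 0.504 in all, 6-month pairs −0.302 to 0.128; 6 of 12 and 1 of 9 libraries correlated best with their own number), so those libraries share only a number. There the replicate block gave 1 gene in E18.5 Nkx against WT, Cox6b2 (10.4% of all genes), and 40 in 6-month Double against WT (27%). Ndufa4l2 lost its call against Nkx under the block alone. Single uncalled values changed sign: Atp5s in E18.5 Double against Nkx to −0.03 (male libraries alone), Cox7a1 and Atp5g2 in 6-month Nkx to −0.1 each (length trend removed), Atp5b in 6-month Nkx to 0.02 (male libraries alone) and in 6-month Double to 0 (female libraries alone), and Cox7a1 in 6-month Double to 0.13 (sex covariate) and to 0.08 (replicate block, and without Double library 4, in a leave-one-out range of −0.23 to 0.08). The cause was not tested. A count model could not be used on log2 values, and single-sex fits were not run where a group lacked that sex.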
